A study of Mus musculus with 23 samples.

Results

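The p53 pathway was examined through 34 genes, chosen as a list: Trp53, which encodes p53, its inhibitors Mdm2 and Mdm4, and 31 genes known as targets of p53. All 34 were among the 18217 genes with a named probe on the array, and 33 of them were among the 13720 genes with enough signal to test. The exception was Eda2r, a death receptor gene of the tumour necrosis factor receptor family, whose 3 probes were not well above background on any array. Agilent one-colour arrays measured RNA from 9 mouse B cell lymphoma lines of Atm KO, Cd3e KO genotype, from 6 Atm KO, Cd3e KO spleens without tumours and from 7 Atm WT, Cd3e KO spleens, all of the mixed C57BL/6 x 129 background. Atm encodes the kinase that signals double-strand breaks to p53, and Cd3e is needed for the T cell receptor, so all groups shared the defect that leaves mice without T cells. The lines were established from tumour-bearing spleens and kept untreated in suspension culture, whereas the other samples were whole spleen tissue. All 6 KO spleens were from females, the WT spleens were from 4 males and 3 females, and the sex and age of the animals behind the lines were not given. The lines are numbered 1 to 9 here. Each line and spleen has an identifier of its own in the labels, nothing says further that they came from separate animals, and p-values measure the spread between these samples.

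The p53 protein is a transcription factor that is kept scarce by Mdm2, a ubiquitin ligase, and held inactive by Mdm4. DNA damage signalled by Atm and its relatives frees p53, which then raises genes that stop the cell cycle (Cdkn1a), that start cell death (Fas, Bbc3), that repair DNA (Xpc, Ddb2) and that restrain p53 itself (Mdm2). In B cell lymphomas the pathway can be lost by mutation of the p53 gene, which lowers its targets whatever the level of its mRNA.

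Levels are given as log2 signal relative to the 75th percentile of the array, and differences as log2 differences between group means, so that 1 is a doubling. "Called" means a limma p-value under 0.05 after Benjamini-Hochberg adjustment over all 13720 genes. A probe's brightness depends on the probe, so a level is compared only with the same gene's level in other samples.

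The labels were checked first. Both Atm probes were lower in every KO spleen and every line than in every WT spleen: the first lay at -3.91 to -3.49 in KO spleens, -4.47 to -3.27 in lines and -2.12 to -1.39 in WT spleens. Cd3e signal was present in all groups, at -4.65 to -3.86 in spleens and -3.30 to -1.22 in lines, and whether its probe lies in the deleted part was not examined. All 14 B cell markers were well above background in all 22 samples. The lines lay far below the spleens for most markers of other cells: 8 of 8 natural killer, 10 of 10 macrophage, 10 of 10 neutrophil and 7 of 8 erythroid genes were lower against KO spleens. T cell genes were mixed, with 3 of 9 higher and 5 lower against KO spleens. Cd3d, Cd3g and Cd2 were well above background in every line and Thy1 and Cd8a in none. The log2 of the summed level was 2.92 to 5.38 in lines, 3.43 to 3.88 in KO spleens and 3.66 to 4.02 in WT spleens. The brightest genes weigh most in such a sum. Elane, Lcn2, Mmp8, Retnlg, Epb42 and Rhag were not well above background in any line. In such bulk RNA, fewer cells of a type and less RNA per cell cannot be told apart, and the part of cell makeup in the differences below was not tested.

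Line 8, titled 704405, needs a caution before any result. The submitters' design text counts 10 lines, while 1 of the 10 arrays has the title of line 8 with a mark as a repeat, and these arrays were averaged here. Over all tested genes they correlated at 0.968, no better than many pairs of different lines, whose arrays correlated at 0.944 to 0.985. Of 44 such pairs, 11 reached or exceeded the value of the repeat. The p53 genes differed more between the 2 arrays than genes in general did. Of the 33 members, 36.4% differed by more than 1 log2 unit, against 15.2% of all genes, with 10 higher and 2 lower on the array marked as a repeat. Phlda3, an inhibitor of Akt signalling, was at 5.24 on the repeat array and 0.67 on the other, a span wider than that of all 9 lines. Plk2, a kinase of the polo family, differed by 2.43, Polk, a damage-tolerant DNA polymerase, by 1.69, Cdkn1a by 1.40, Ccng1 by 1.37 and Zmat3 by 1.37. Sesn1, which encodes a stress protein that restrains mTORC1, ran the other way and was 1.88 lower on the repeat array, as was Ddb2, by 1.09. Even so, 25 of 33 members lay on the same side of all 13 spleens, or within their range, on both arrays (18 above and 6 below on both). Polk and Ddb2 changed sides, Polk above all spleens on the repeat array and below them on the other and Ddb2 the reverse. Tigar, Ak1, Dcxr and Aen were higher on the repeat array by 1.14 to 1.59, and on the other array Dcxr (0.17) and Ak1 (-4.69) lay within the range of the spleens. The results below use the average, and where the place of line 8 among the lines differs between its arrays, an order of the lines holds for the average alone.

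**Figure D1:**
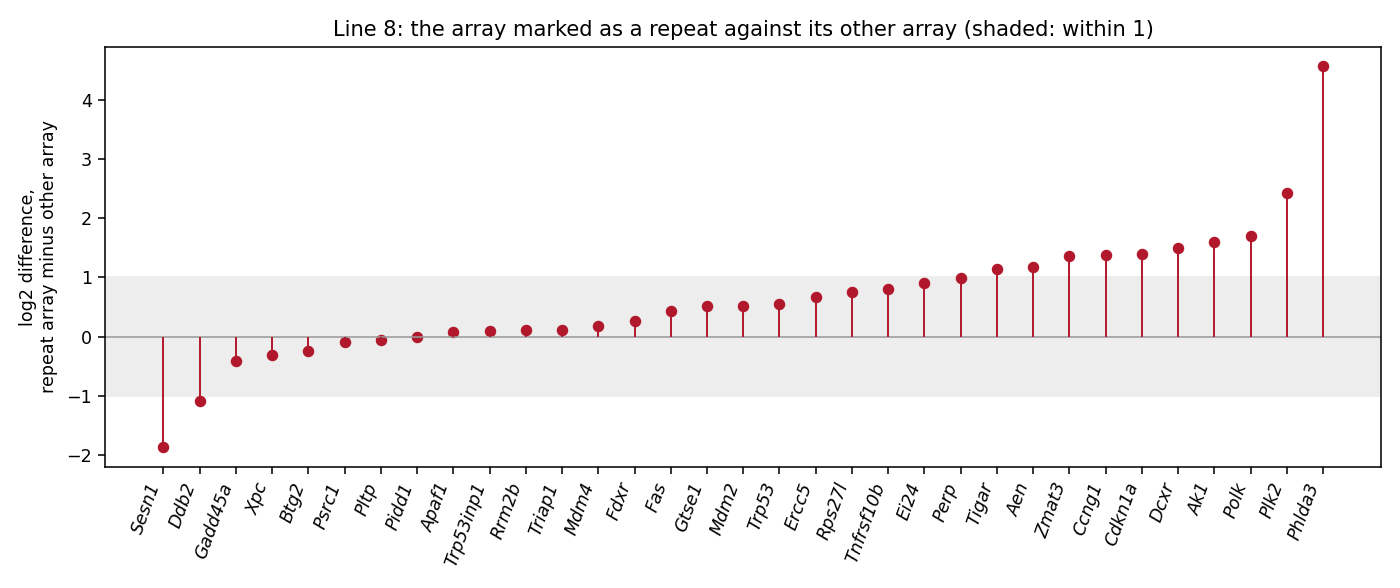
Log2 difference between the array of line 8 marked as a repeat and its other array, for each of the 33 tested p53 pathway genes, with the band of differences within 1 shaded. Phlda3 stands at 4.57 and Sesn1 at -1.88, the ends of the range.

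Against the KO spleens, 24 of the 33 members were called higher in the lines, 5 lower and 4 neither. Of all 13720 genes, 41.6% were called higher and 28.9% lower. The median difference of the members was 0.81 and that of all genes 0.18. Against the WT spleens, 23 were called higher, 7 lower and 3 neither, with 40.4% and 30.9% of all genes in those directions, and the medians were 0.90 and 0.14. Both comparisons share the lines. The 23 genes higher against WT spleens were all higher against KO spleens, and 5 genes were lower against both. In 17 members every line lay above every spleen, as did 21.0% of all genes (Dcxr is not among them with the unmarked array of line 8), and in 3 every line lay below every spleen, as did 15.4% of all genes. The counts were 24 and 5 against KO spleens with line 8 left out or with either of its arrays alone.

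Each array centred on its median in place of its 75th percentile moved the median difference of all genes against KO spleens from 0.18 to 0.77. The members then had 25 higher and 4 lower against KO spleens and 25 higher and 3 lower against WT spleens. The share of all genes called under this scaling was not computed, so these counts have nothing beside them. The median of the members against KO spleens was 1.40, still above that of all genes. Against WT spleens it was 1.48, and that of all genes 0.71. The arrays lay on 6 slides, of which 5 held lines and both kinds of spleen while 1 held only lines 7, 8 and 9. Within the 5 mixed slides the median of the members was 0.65 to 1.01 against KO spleens and 0.65 to 1.202 against WT spleens, while the medians of all genes were 0.10 to 0.26.

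**Figure D2:**
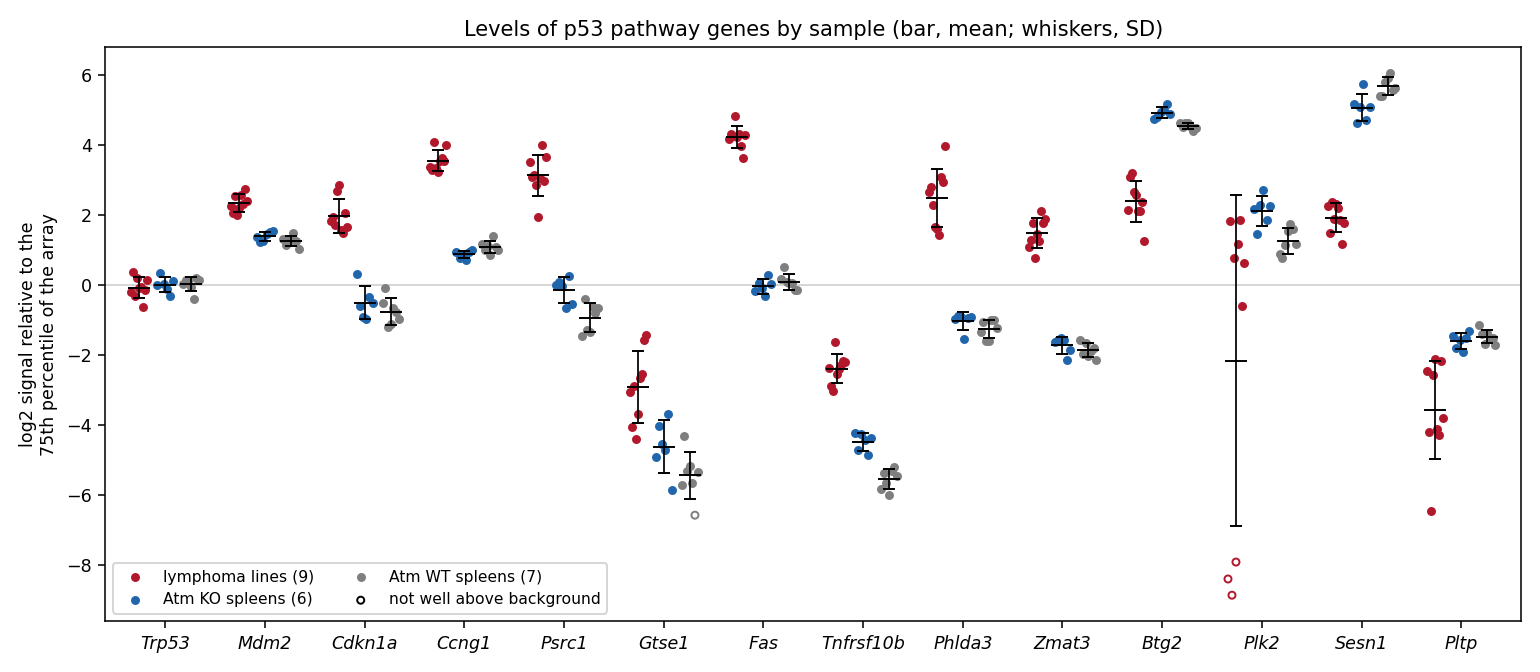
Log2 signal relative to the 75th percentile of the array (vertical axis) for 14 p53 pathway genes in 9 lymphoma lines, 6 Atm KO spleens and 7 Atm WT spleens, with bars for the mean and whiskers for the SD. The lines stand clear above the spleens for Mdm2, Cdkn1a, Ccng1, Psrc1, Fas, Tnfrsf10b, Phlda3 and Zmat3 and clear below for Btg2, Sesn1 and Pltp, while Trp53 overlaps in all groups.

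Of p53 and its inhibitors, the inhibitors were higher in the lines and the Trp53 mRNA was not called. Trp53 ranged from -0.63 in line 7 to 0.37 in line 2, with a median of -0.10. Its levels were -0.31 to 0.34 in KO spleens, with a median of 0.01, and -0.41 to 0.21 in WT spleens, with a median of 0.12. Of the 9 lines, 1 lay above every spleen, 1 below and the rest among them. The difference between lines and KO spleens was -0.09 (SE 0.14, adjusted p = 0.59), its second probe gave 0.17, and with arrays centred on their median the first gave 0.50, which was called higher but lay below the shift of all genes under that scaling.

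Mdm2 lay at 2.00 to 2.74 in the lines, with a median of 2.33. In KO spleens it lay at 1.24 to 1.53, median 1.42, and in WT spleens at 1.03 to 1.49, median 1.28. No line overlapped the spleens, and the lowest line was line 4. The difference was 0.95 (SE 0.11, adjusted p = 7.7e-08) against KO spleens, a rise of 1.93-fold, and 1.08 (SE 0.10, adjusted p = 4.3e-09) against WT spleens. Mdm4 was higher by 0.64 and 0.57, with 7 of 9 lines above every spleen. Its other 2 probes gave 0.03 and 0.13 against KO spleens, and with the mean of the probes it was not called (adjusted p = 0.079).

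Among the 7 members tied to cell cycle arrest or the cycle itself, 5 were higher and 2 lower in the lines against each kind of spleen. Of all genes, 41.6% were higher and 28.9% lower against KO spleens, and 40.4% and 30.9% against WT spleens. Cdkn1a encodes p21, the inhibitor of cyclin-dependent kinases through which p53 arrests cells. It lay at 1.48 to 2.86 in the lines, with a median of 1.81, at -0.97 to 0.33 in KO spleens, median -0.56, and at -1.21 to -0.09 in WT spleens, median -0.78. The lowest line lay above the highest spleen, and lines 4 (2.68) and 5 (2.86) were highest, with line 8 at 2.75 on its repeat array and 1.35 on the other. The difference from KO spleens was 2.48 (SE 0.23, adjusted p = 4.0e-09), or 5.58-fold, and it was 2.40 with the one array of line 8 and 2.56 with the other.

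Ccng1, which encodes cyclin G1, lay at 3.24 to 4.08 in the lines, median 3.53, against 0.72 to 1.01 in KO spleens, median 0.91, and 0.86 to 1.39 in WT spleens, median 1.09. No line overlapped the spleens. Lines 3 and 9 were highest and line 5 lowest, but the arrays of line 8, at 4.23 and 2.86, lay beyond both ends. The rise was 2.68 (SE 0.12, adjusted p = 2.9e-14) against KO spleens and 2.47 (SE 0.12, adjusted p = 4.4e-14) against WT spleens, and its second probe gave 3.12 and 3.08.

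Psrc1 and Gtse1 act on microtubules in dividing cells, besides being p53 targets. Psrc1 lay at 1.93 to 4.00 in the lines, median 3.07, at -0.66 to 0.27 in KO spleens, median -0.02, and at -1.45 to -0.40 in WT spleens, median -0.80. Every line was above every spleen, and the difference from KO spleens was 3.29 (SE 0.25, adjusted p = 1.2e-10). Gtse1 lay at -4.40 to -1.44 in the lines, median -2.88, at -5.86 to -3.68 in KO spleens, median -4.64, and at -6.58 to -4.32 in WT spleens, median -5.35. Here 6 of 9 lines were above every spleen, lines 8 and 9 highest, and the difference was 1.71 (SE 0.43, adjusted p = 0.0014) against KO spleens and 2.52 (SE 0.41, adjusted p = 1.1e-05) against WT spleens, where normexp gave 0.46 and no call (adjusted p = 0.34). Proliferation genes moved with both: 15 of 16 were higher in the lines against either kind of spleen, with a median difference of 2.08 against KO spleens. The log2 of their summed level was 7.58 to 9.04 in the lines, 5.78 to 7.08 in KO spleens and 4.98 to 6.79 in WT spleens. Their part in the p53 result was not tested. With Psrc1 and Gtse1 left out the median of the members against KO spleens was 0.61 to 1.01 in single lines. Gadd45a, a stress sensor that binds PCNA and p21, was higher by 0.81 (SE 0.17, adjusted p = 2.8e-04) against KO spleens and 1.75 (SE 0.17, adjusted p = 4.8e-09) against WT spleens.

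The 2 lower members of this group were Btg2 and Plk2. Btg2, an antiproliferative gene that is also an immediate early gene in lymphocytes, lay at 1.26 to 3.20 in the lines, median 2.38, at 4.73 to 5.17 in KO spleens, median 4.92, and at 4.40 to 4.63 in WT spleens, median 4.52. All lines lay below all spleens, line 9 lowest, and all 3 probes were lower. The difference from KO spleens was -2.53 (SE 0.20, adjusted p = 3.1e-10). Plk2 divided the lines. In lines 1, 3 and 5 it was not well above background, at -8.40, -8.87 and -7.92, while the other 6 lines lay at -0.60 to 1.87. The KO spleens lay at 1.47 to 2.73, median 2.21, and the WT spleens at 0.76 to 1.75, median 1.17, and 5 of 9 lines were below every spleen. As fitted, Plk2 was lower by 4.30 (SE 1.54, adjusted p = 0.017) against KO spleens and 3.43 (SE 1.47, adjusted p = 0.043) against WT spleens. The latter call was lost without line 1, 3 or 5 (adjusted p = 0.085 to 0.086) and without any 1 of the 7 WT spleens (adjusted p = 0.053 to 0.065).

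Promoter sequence was set beside these levels for the genes whose window held a pair of p53 half-sites. RefSeq windows of assembly GRCm38.p6, from 250 bases before to 50 after the start, were held for 27 of the 34 members, in 38 windows. The p53 half-site consensus of 10 letters, which reads the same way on both strands, was searched as exact matches and as pairs with a spacer of 0 to 13 bases and at most 1 mismatch over 20 letters. An exact half-site was present in 12 of 38 member windows (31.6%) and in 8.36% of all 32851 windows. A pair was present in 4 member windows (10.5%) and in 0.627% of all windows. All 4 genes with a pair were higher in the lines against KO spleens, as were 24 of the 33 tested members and 41.6% of all genes. The sequences, 5′ to 3′ on the gene's strand with the half-sites of 1 pair per gene in capitals, are these.
Cdkn1a, plus strand, chr17:29090886-29090957: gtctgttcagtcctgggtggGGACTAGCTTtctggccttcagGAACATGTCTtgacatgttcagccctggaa
Ccng1, minus strand, chr11:40755442-40755501: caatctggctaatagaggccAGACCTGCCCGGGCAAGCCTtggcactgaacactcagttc
Rps27l, plus strand, chr9:66946276-66946335: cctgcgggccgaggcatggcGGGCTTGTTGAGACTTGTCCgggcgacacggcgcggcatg
Gtse1, plus strand, chr15:85859945-85859964: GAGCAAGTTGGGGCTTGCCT
The marked pair of Cdkn1a has no mismatch and a spacer of 12 bases, and it begins 73 bases before the start. Its second half-site also forms a pair with the 10 letters directly after it, left in lower case, with 1 mismatch. Only the pair with the fewest mismatches was marked in a window. The pairs of Ccng1 and Rps27l lie side by side with 1 mismatch each and begin 195 and 117 bases before the start, and that of Gtse1 spans the start. These matches describe the letters in the windows, and no binding was measured.

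Of the 12 apoptosis members, 11 were tested, and 10 were higher in the lines against each kind of spleen. The share of all genes higher was 41.6% against KO spleens and 40.4% against WT spleens. Fas, the death receptor that lets T cells and other Fas ligand bearers kill a cell, showed the widest gap. It lay at 3.64 to 4.83 in the lines, median 4.25, at -0.31 to 0.29 in KO spleens, median -0.03, and at -0.15 to 0.52 in WT spleens, median 0.07. The lines exceeded KO spleens by 4.26 (SE 0.14, adjusted p = 1.1e-16), or 19.1-fold, and WT spleens by 4.13 (SE 0.14, adjusted p = 6.2e-17), and its second probe gave 4.37. Line 4 was highest and line 8 lowest. Tnfrsf10b, the mouse death receptor for TRAIL, lay at -3.04 to -1.62 in the lines, median -2.36, at -4.85 to -4.22 in KO spleens, median -4.40, and at -6.00 to -5.21 in WT spleens, median -5.47. It was higher by 2.09 (SE 0.18, adjusted p = 9.5e-10) and 3.16 (SE 0.17, adjusted p = 3.5e-13), and the 3 groups did not overlap. With background corrected by normexp, the latter difference was 0.82 and was not called (adjusted p = 0.068). The other Tnfrsf10b probes, well above background in 18 and 14 samples, gave 2.39 and 0.42 against KO spleens.

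Phlda3 lay at 1.43 to 3.97 in the lines, median 2.65, at -1.55 to -0.88 in KO spleens, median -0.94, and at -1.61 to -0.99 in WT spleens, median -1.24. All lines were above all spleens, and the difference from KO spleens was 3.52 (SE 0.29, adjusted p = 5.7e-10). It was 3.78 with the repeat array of line 8 and 3.27 with the other. Zmat3, a p53 target that encodes an RNA-binding zinc finger protein, lay at 0.78 to 2.11 in the lines, median 1.47, at -2.15 to -1.51 in KO spleens, median -1.61, and at -2.15 to -1.57 in WT spleens, median -1.90. The difference was 3.21 (SE 0.17, adjusted p = 3.3e-13) against KO spleens and 3.36 (SE 0.16, adjusted p = 5.6e-14) against WT spleens.

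Smaller rises were found for Ei24, which encodes a membrane protein of the endoplasmic reticulum (1.53), Pidd1, the scaffold of the caspase-2 platform (1.26), Aen, an apoptosis-linked nuclease (0.99), Trp53inp1, a cofactor of p53 (0.76), Apaf1, the core of the apoptosome (0.65), and Triap1, an inhibitor of apoptosis (0.48), all against KO spleens. In 5 of these 6, all but Triap1, every line was above every spleen. The other Pidd1 probes gave 1.27 and 0.29 against KO spleens. Triap1 was higher by 0.26 against WT spleens (adjusted p = 0.018), but with quantile normalisation this became -0.03 and was not called, and against KO spleens neither Triap1 (0.18) nor Trp53inp1 (0.29) was then called. Perp, a desmosome protein with a role in cell death, was the one tested apoptosis gene called in neither comparison, at -0.76 (SE 0.71, adjusted p = 0.35) against KO spleens. It was also among the most uneven, from -7.28 in line 1 and -6.60 in line 3, where it was not well above background, to -0.67 in line 9.

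Of the 5 DNA repair members, 2 were higher and 1 lower against KO spleens, and 2 higher and 3 lower against WT spleens. The shares of all genes were 41.6% higher and 28.9% lower against KO spleens, and 40.4% and 30.9% against WT spleens. Ercc5, the nuclease XPG of nucleotide excision repair, was higher in the lines by 0.80 (SE 0.13, adjusted p = 9.6e-06) against KO spleens and Polk by 0.67 (SE 0.09, adjusted p = 2.0e-06). Against WT spleens Polk was higher by 0.24 (adjusted p = 0.020), a call that was lost without WT spleen 2 (adjusted p = 0.059) or with the unmarked array of line 8 alone (adjusted p = 0.33). Rrm2b, the p53-induced subunit of ribonucleotide reductase that supplies dNTPs, was lower by 0.62 (SE 0.17, adjusted p = 0.0028) against KO spleens. It was not called after normexp (0.08), after quantile normalisation (-0.09) or with arrays centred on their median (-0.03). The median of all genes was 0.32, 0.14 and 0.77 in these 3 settings. Ddb2 and Xpc, damage sensors of nucleotide excision repair, were not called against KO spleens (adjusted p = 0.11 and 0.14). With slide as a term Ddb2 was called lower there (-0.43, adjusted p = 0.0040), and quantile normalisation called both lower (adjusted p = 0.0075 and 0.011). Against WT spleens they were lower, by 0.46 (adjusted p = 0.0036) and 0.54 (adjusted p = 0.0089). These differences turned to 0.11 and 0.04 with arrays centred on their median, where the median of all genes was 0.71. Xpc lay above every spleen in lines 4 and 5 and below every spleen in the other 7, and without line 4 or line 5 it was called lower against KO spleens (adjusted p = 0.017 and 0.031).

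Among the metabolism and stress members, the largest fall was that of Sesn1. It lay at 1.16 to 2.36 in the lines, median 1.88, at 4.63 to 5.73 in KO spleens, median 5.08, and at 5.40 to 6.05 in WT spleens, median 5.64. All 9 lines were below all spleens, and the difference was -3.15 (SE 0.19, adjusted p = 2.3e-12) against KO spleens and -3.76 (SE 0.18, adjusted p = 4.0e-14) against WT spleens. Its other 2 probes gave -2.97 and -3.05 against KO spleens. Pltp, a phospholipid transfer protein, lay at -6.45 to -2.11 in the lines, median -3.80, at -1.92 to -1.32 in KO spleens, median -1.54, and at -1.71 to -1.15 in WT spleens, median -1.51. It too was below every spleen in every line, with a difference of -1.98 (SE 0.47, adjusted p = 7.0e-04) against KO spleens and -2.10 (SE 0.45, adjusted p = 2.4e-04) against WT spleens. Higher in the lines than in KO spleens were Ak1, an adenylate kinase (1.36), Dcxr, a xylulose reductase (1.30), Tigar, which lowers glycolytic flux (1.09), and Fdxr, a mitochondrial reductase (0.56). Fdxr was not called against WT spleens (0.30, adjusted p = 0.074), and it was called there with slide as a term (0.45, adjusted p = 0.0044) and without line 6, 7 or 8 (adjusted p = 0.040, 0.024 and 0.039). After normexp Ak1 was not called against KO spleens (0.84, adjusted p = 0.084), nor were Ak1 (0.04) and Tigar (0.15) against WT spleens, and quantile normalisation ended the call of Fdxr against KO spleens (0.29, adjusted p = 0.068). Rps27l, a ribosomal protein paralog that p53 induces, was higher by 1.54 (SE 0.12, adjusted p = 4.0e-10) against KO spleens and 1.80 (SE 0.12, adjusted p = 1.2e-11) against WT spleens, and no line overlapped a spleen.

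Over the 33 tested members, no line lost the targets as a whole. The further p53 targets outside the members, described below, were called in both directions. The log2 of their summed level was 7.78 to 8.47 in the lines. It was 8.37 to 8.67 in KO spleens and 8.01 to 8.71 in WT spleens. The level of a line was taken as the median, over the 33 members, of the difference from the mean of the KO spleens. In lines 1 to 9 in turn it was 0.86, 0.61, 1.02, 0.67, 0.83, 0.998, 1.06, 0.68 and 0.97. The same median over all genes was 0.08 to 0.31. Single spleens lay between -0.10 and 0.04, so every line stood above every spleen. Line 8 alone gave 1.41 on the repeat array and 0.58 on the other, and with the latter it was the lowest line. With arrays centred on their median the levels were 1.07 to 1.75.

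The count of members above all 13 spleens was 21 to 24 of 33 in each line, where 38.3% to 44.97% of all genes lay above. From 5 to 7 members lay below, against 28.3% to 33.2% of all genes. Mdm2, Cdkn1a, Ccng1, Zmat3, Phlda3, Fas and Ei24 were above all spleens in each of the 9 lines and on each array of line 8. Line 4 was lowest of the lines for 6 of 33 members (18.2%, against 8.5% of all genes). Line 9 was highest for 8 (24.2%, against 16.2% of all genes) and line 7 for 7 (21.2%, against 14.3%). These counts turned on line 8: with its repeat array it was itself highest for 8, and with the other array lowest for 9.

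**Figure D3:**
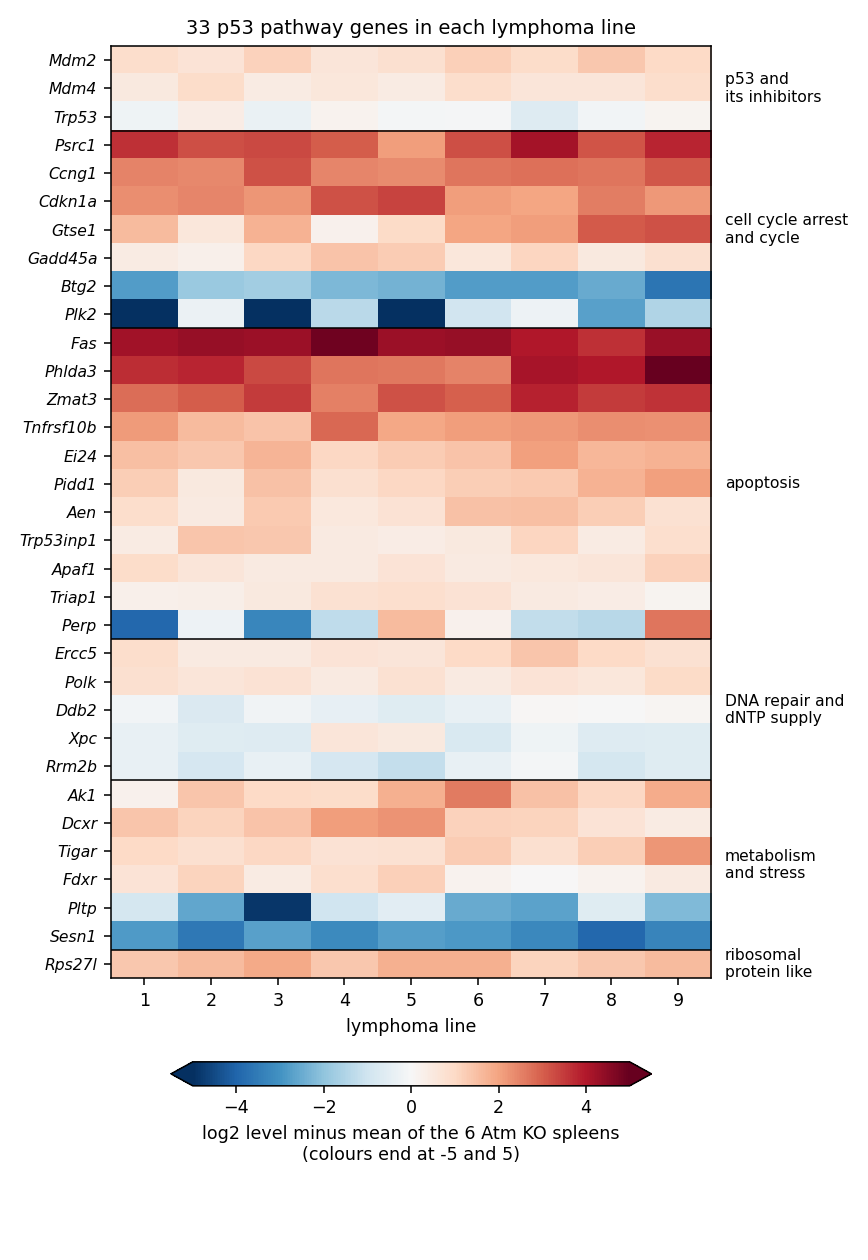
Log2 level of each of the 33 tested members in each lymphoma line minus the mean of the 6 Atm KO spleens, with the members grouped by role and the colours ending at -5 and 5. Rows of 1 colour run across all 9 lines for Fas, Phlda3, Zmat3 and Psrc1 (higher) and Sesn1 and Btg2 (lower), while Plk2 and Perp change from line to line.

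**Figure D4:**
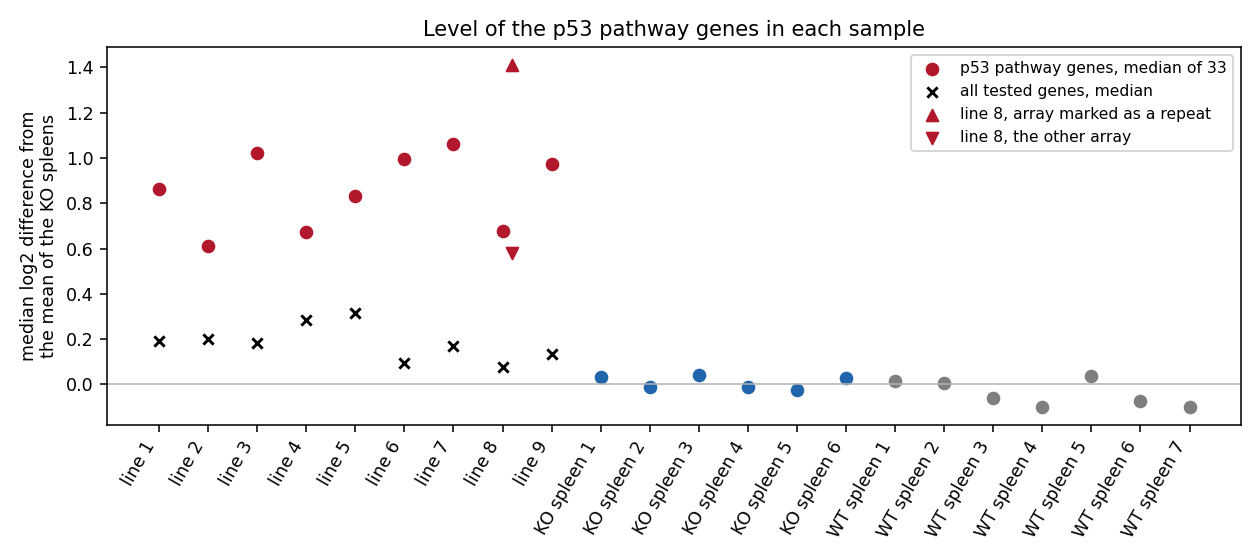
Median over the p53 pathway genes of the log2 difference from the mean of the KO spleens, by sample, with the median over all tested genes as crosses for the lines and the 2 arrays of line 8 as triangles. Lines lie at 0.61 to 1.06 and spleens at -0.10 to 0.04.

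The SD over the lines was below 0.5 for 23 of 33 members (19 with the repeat array of line 8 alone and 22 with the other), and the median SD was 0.41, against 0.44 for all genes. The members with the largest SD were Plk2 (4.73), Perp (2.11), Pltp (1.41) and Gtse1 (1.02), and Phlda3 followed at 0.83, or 1.24 with the repeat array of line 8 and 1.002 with the other. Lines 1 and 3 shared the near absence of both Plk2 and Perp signal, while line 5 lacked Plk2 and had the second-highest Perp, at -1.76. Lines 4 and 5, whose arrays correlated at 0.985 over all genes, had the 2 highest levels of Cdkn1a (with line 8 averaged), Gadd45a, Xpc, Dcxr and Triap1, and lay on the same slide. Mdm4, Triap1 and Apaf1 varied little, with SDs of 0.21 to 0.25 on the average or either array of line 8. Polk had the lowest SD, 0.17, only on the average, and 0.29 or 0.36 with a single array.

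Whether the core genes varied together was examined over the 9 lines for the 15 pairs of Trp53, Mdm2, Cdkn1a, Ccng1, Zmat3 and Phlda3. With exact permutation tests, two-sided, 0 of 15 pairs passed after adjustment over the 15, and 0 had an unadjusted p under 0.05. With arrays centred on their median, 1 pair had an unadjusted p under 0.05, and without line 8 also 1. After adjustment 0 passed in either setting. The highest r was that of Ccng1 with Zmat3, 0.65 (exact permutation p = 0.063, adjusted p = 0.30) and rho = 0.67 (exact permutation p = 0.059, adjusted p = 0.25). Without the 2 lines farthest from the median of Ccng1 it was 0.64. Mdm2 with Ccng1 had the higher rho, 0.68 (exact permutation p = 0.050, adjusted p = 0.25), with r = 0.56 (exact permutation p = 0.12, adjusted p = 0.30), or 0.72 without line 8. Cdkn1a ran opposite to Ccng1, at r = -0.59 (exact permutation p = 0.075, adjusted p = 0.30) and rho = -0.68 (exact permutation p = 0.050, adjusted p = 0.25). This r shrank to -0.38 without lines 4 and 5 and to -0.17 with arrays centred on their median. Slides held at most 3 lines each, too few for a correlation within a slide, and none was computed. Trp53 mRNA had r between -0.57 and 0.37 with its targets, exact permutation p = 0.11 or more. With arrays centred on their median, its r with Mdm2 went from -0.43 to 0.29 and with Ccng1 from -0.31 to 0.24.

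Between the genotypes most of the p53 genes were not called. Of 33 members, 3 were called higher in KO than WT spleens (9.1%), 0 lower and 30 neither. Of all genes, 1.66% were called higher and 2.16% lower. The median of the members was 0.04 and that of all genes -0.05. At adjusted p under 0.05 in a fit without the sex term, 6 were higher and 3 lower. The share of all genes called in that fit was not computed, so these counts have nothing beside them. Since all KO spleens were female, the fit with sex rests on 6 KO against 3 female WT spleens, with the males informing only the spread.

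Gadd45a lay at 2.54 to 3.15 in KO spleens and 1.34 to 2.24 in WT spleens, without overlap. It was higher by 0.98 (SE 0.19, adjusted p = 0.017), and within the 5 mixed slides by 0.44 to 1.13. Tnfrsf10b was higher by 0.85 (SE 0.16, adjusted p = 0.016), without overlap, and within slides by 0.85 to 1.35, but after normexp it was at -0.74 and not called (adjusted p = 0.52). Btg2 was higher by 0.46 (SE 0.10, adjusted p = 0.023), also without overlap, and within slides by 0.17 to 0.54. The values within slides take no account of sex, and most of these slides held a male WT spleen. The 3 calls were fragile. With the slide as a term Tnfrsf10b remained called (adjusted p = 0.032), while Gadd45a (adjusted p = 0.058) and Btg2 (adjusted p = 0.062) did not. Without WT spleen 5 none of the 3 was called (adjusted p = 0.061 to 0.078), nor without WT spleen 6 (adjusted p = 0.055 to 0.11), and without WT spleen 7 Gadd45a alone was (adjusted p = 0.0498). Polk too did not overlap and lay lower in KO spleens, at -2.17 to -1.83 against -1.82 to -1.32, and was not called (-0.43, adjusted p = 0.068) except without WT spleen 2 (adjusted p = 0.040) or without the sex term (adjusted p = 0.011). Of all genes, 2.27% lay above without overlap and 2.10% below.

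The core targets showed no call by genotype. Cdkn1a differed by 0.30 (SE 0.29, adjusted p = 0.60), Mdm2 by 0.13 (SE 0.11, adjusted p = 0.52), Ccng1 by -0.28 (SE 0.11, adjusted p = 0.18) and Fas by 0.04 (SE 0.14, adjusted p = 0.90). Sesn1 was at -0.68 (SE 0.22, adjusted p = 0.11). Beside these, 6 of 8 natural killer cell genes were lower in KO spleens. The log2 of their summed level was 5.80 to 6.49 in KO spleens against 6.39 to 6.86 in WT spleens. The 16 proliferation genes had a median difference of 0.69 with 0 called. Neutrophil and erythroid genes had medians of 0.99 and 0.86, also with 0 called. The highest proliferation level among WT spleens, 6.79, was that of WT spleen 2. The part of these markers in the genotype values was not tested.

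**Figure D5:**
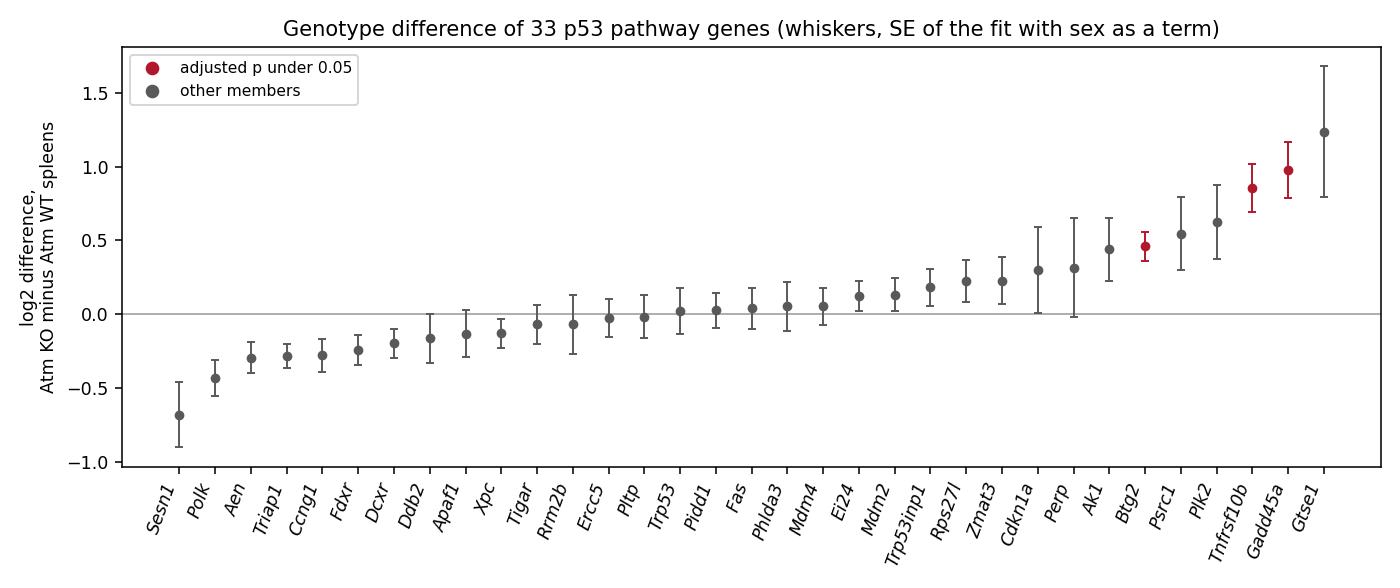
Log2 difference between Atm KO and Atm WT spleens for each of the 33 members, with the SE of the fit that has sex as a term. Tnfrsf10b (0.85), Gadd45a (0.98) and Btg2 (0.46) are called, and Gtse1 has the highest value, 1.24, with a wide error.

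Of 27 tested regulators of p53 other than the members, 12 were higher (44.4%) and 4 lower (14.8%) in the lines against KO spleens. Of all genes, 41.6% were higher and 28.9% lower there. Against WT spleens 14 were higher (51.9%) and 6 lower (22.2%), where 40.4% and 30.9% of all genes were. The median difference of these regulators from KO spleens was 0.16 and that of all genes 0.18. Cdkn2a, which encodes Arf, the inhibitor of Mdm2, and the cell cycle inhibitor p16, was not well above background in any spleen and lay at -3.77 to -0.59 in the lines. That is at least 30.3-fold higher than in KO spleens and at least 26.2-fold higher than in WT spleens, the bound being the lowest signal well above background on each array. Trp73, a p53 relative, was higher by 3.31, Chek1, the checkpoint kinase below Atr, by 1.81, and Wwox, a tumour suppressor that binds p73, by 1.21. The 4 lower regulators were Pml, the scaffold of nuclear bodies (-1.25), the acetyltransferases Ep300 (-0.73) and Crebbp (-0.34), and the ubiquitin ligase Ube4b (-0.45). Ppm1d, the phosphatase Wip1 that resets the damage response and is itself a p53 target, was higher by 0.72 (adjusted p = 3.9e-06). Chek2, the kinase below Atm, was not called against KO spleens (0.39, adjusted p = 0.061) and was higher against WT spleens by 0.66 (adjusted p = 0.0018). Between genotypes 0 of the 27 were called, with 1.66% of all genes called higher and 2.16% lower.

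A further 36 tested genes reported as p53 targets outside the members were called in both directions. Against KO spleens 12 were higher (33.3%) and 14 lower (38.9%), where 41.6% and 28.9% of all genes were. Their median was -0.05 and that of all genes 0.18. Against WT spleens 14 were higher (38.9%) and 13 lower (36.1%), where 40.4% and 30.9% of all genes were. Bbc3, which encodes Puma, was higher by 2.68 (SE 0.15, adjusted p = 1.1e-12), at 4.83 to 6.15 in the lines and 2.35 to 2.96 in KO spleens, and Bax, the pore former of mitochondria, by 1.38 (SE 0.13, adjusted p = 8.6e-09). Also higher were Ckap2, a spindle protein (2.05), Bid, a death agonist of the BCL2 family (1.80), and Cpt1c, a carnitine palmitoyltransferase (1.64). Pmaip1, which encodes Noxa, was not called (-0.20, adjusted p = 0.46). The genes with the largest falls were not well above background in most lines. Thbs1, a matrix protein, and Dram1, a lysosomal protein, were not in any line, and KO spleens were at least 48.4-fold and at least 15.9-fold higher. Sulf2, a sulfatase (-8.36 as fitted), and Cx3cl1, a chemokine (-6.19 as fitted), were measured in 1 of 9 lines each. Of the stromal and endothelial markers, 7 of 10 were lower and 1 higher against KO spleens. The log2 of their summed level was -1.51 to -0.04 in the lines and 1.83 to 1.98 in KO spleens, and their part was not tested. Between genotypes Pcna, the replication clamp, was called higher in KO spleens (0.45, adjusted p = 0.048).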

How the data were processed

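The members, lists and named genes were chosen with earlier results of these data known. Intensity values per spot, in the deposited scanner files, were written by Agilent Feature Extraction 10.7.1.1, background-subtracted per the file headers. The deposited value table holds log2 values of the authors, with a median of 0 for all 41174 probes; its scaling was not stated, column medians were -0.21 to 0.52, and it correlated with the scanner values at 1 after probes were centred. Scanner values were used here. Left out were 1639 control spots per array and 1556 outlier spots in all. Signals were divided by the 75th percentile of the array and taken to log2, and spots of a probe were averaged. Probes were named through RefSeq accessions (26690 of 41174 matched). Probes well above background in 6 or more of the 22 samples were kept, and the brightest of them on average represented its gene. Signal over background limits precision: 54.9% to 67.7% of spots were well above it. Groups were compared with limma 3.58.1 in R 4.3.3 (package data.table, version 1.17.8): lines with spleens in 1 fit of 3 groups, genotypes in 13 spleens with a sex term, with Benjamini-Hochberg adjustment over all tested genes at 0.05. The fits were tested on simulated data. All 34 members are accounted for, with values by group for 7 core genes and for members called with a log2 difference of 2 or more. Of the other regulators and targets, the 4 largest called per direction against KO spleens, those called between genotypes and a fixed set of 6 were named, apart from items that are not reported here. Alternatives covered scaling, filter, probes, slide, sex and each sample left out. Background correction by normexp (offset 50) used the median spot signal, because the files used here have no column of the mean signal.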

Additional observations from a re-analysis of the deposited data

Results flagged for a closer look

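In 100 groups of values tested (33 members in 3 groups and the line levels), 3 held a sample whose gap to the others was wide for the range of its group, and chance gives about 1 in 20. Phlda3 was lowest in KO spleen 4, at -1.55, where the next spleen was at -0.97. Tigar was highest in line 9, at -1.16, where the next line was at -2.11, though the repeat array of line 8 was at -1.58. Pltp was lowest in line 3, at -6.45, where the next line was at -4.29.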

How the results depend on the processing

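No paired analysis was possible because the replicate numbers follow the order of the samples and pair none of them. Of the 29 members called against KO spleens, 23 kept their call and direction under all 11 other settings, and all 29 did without each of 22 samples in turn; against WT spleens, 19 of 30 and 28 of 30 did. With arrays centred on their median, where all genes shift too, the medians of the members were 1.40 and 1.48 against KO and WT spleens, 3 were lower against WT spleens, Trp53 was at 0.50 and 0.47, Ddb2 at 0.11 and Xpc at 0.036 (both against WT spleens), and lines 1 to 6, 8 and 9 were at 1.55, 1.07, 1.64, 1.26, 1.42, 1.75, 1.39 and 1.70. With quantile normalisation Triap1 was at -0.033 against WT spleens, line 2 at 0.79 and line 7 at 0.80. With normexp, added after seeing the data, 3 were lower against WT spleens, with a median of 0.46, Rrm2b was at 0.075 against KO spleens, line 6 was at 0.83 and line 7 at 0.88. Normexp also gave 0 members higher between genotypes, with a median of -0.11 and Tnfrsf10b at -0.74. The mean of all probes gave 0.68 for line 1 and 0.99 for line 8, the repeat array 1.41 for line 8, and the mean of the WT spleens as reference 0.80 for line 2 and 0.92 for line 8. Between genotypes 1 member was higher with slide as a term, and 6 were higher and 3 lower without the sex term. Without each sample in turn, the members higher by genotype numbered 0 to 4 and those lower 0 to 1, with a median of 0.022 to 0.091; leaving out a female WT spleen leaves 2 of them. Against KO spleens, 24 were higher in each such fit, 5 to 6 lower, with a median of 0.78 to 0.89. Against WT spleens 22 to 24 were higher and 6 to 7 lower, with a median of 0.76 to 0.95. The deposited value table, a filter of 11 samples, no filter on dim probes and the 2 arrays of line 8 as separate lines kept all counts of members within 1.5 times. The cause of these changes was not tested.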
